A study of Mus musculus with 18 samples.

Results

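The comparison set O9-1 cells that received siRNA against Yap and Taz together with FGF2 (Y/T dKD+FGF2) against cells that received a scrambled siRNA without FGF2 (Ctrl+vehicle), after 2.5 days (d2.5) in osteoblast differentiation medium. Its libraries were chosen by title alone, as the 3 replicates labelled siY/T with FGF2 and the 3 labelled siCtrl no FGF2, which makes 6 of the 18 bulk RNA-seq libraries of the series. O9-1 is a line of cranial neural crest (NC) cells from mouse embryos, labelled wild type. All groups were transfected, the knockdown cells with SMART pool siRNAs against both Yap and Taz and the controls with a scramble siRNA, so the Ctrl+vehicle cells also carry an siRNA. The question was which functions remained away from the vehicle state when Yap and Taz were lowered under FGF2. FGF2 and the siRNA both differed between the groups, and no library held the siRNA pool without FGF2, so the 2 factors cannot be told apart here. The 3 libraries with scrambled siRNA and FGF2 (Ctrl+FGF2) of the same day are given beside the results. They entered the same fit, and their comparisons share libraries with this one. Below, levels with the knockdown are those of Y/T dKD+FGF2, which also had FGF2.

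Fgf ligands bind receptor tyrosine kinases and act largely through the Ras and Erk cascade, which induces its own inhibitors of the Sprouty, Spred and dual specificity phosphatase families. Yap and Taz are transcriptional coactivators of the Hippo pathway that act through Tead factors and are held in the cytoplasm when the Hippo kinases are active. Cells of the cranial NC become osteoblasts under the factors Runx2 and Sp7, then make a matrix rich in type I collagen and mineralize it with the help of the phosphatase Alpl.

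Counts on genes lay between 12243859 and 14698525 in the Ctrl+vehicle libraries and between 11450342 and 11988618 in the Y/T dKD+FGF2 libraries, so every knockdown library was shallower than every vehicle library. Levels are given as CPM, which here means read counts scaled to the library total after TMM normalization, and a gene is called where edgeR's quasi-likelihood test gave a Benjamini-Hochberg adjusted p under 0.05. All adjusted p-values below come from that test over 13677 genes. The labels do not say that replicates were separate cultures, so p-values measure the spread between these libraries, which may be technical. In bulk RNA, fewer cells of a type and less RNA per cell cannot be told apart. Mitochondrial genes held 0.701% to 1.02% of the counts of the vehicle libraries and 0.528% to 0.643% of those of the knockdown libraries, and the part of this in any result was not tested.

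The siRNA targets were read first. Yap1, on chromosome 9 from 7931999 to 8004596 (GRCm38, minus strand), was at 158, 159 and 164 CPM in replicates 1 to 3 of Ctrl+vehicle, at 140.3, 134 and 136 CPM in Ctrl+FGF2 and at 68.6, 69.6 and 73.7 CPM in Y/T dKD+FGF2. The knockdown libraries held 44.01% of the vehicle level (log2 fold change −1.18, standard error 0.04, adjusted p = 1.6e-21), and all 3 lay below every vehicle library. Wwtr1, which encodes Taz and lies on chromosome 3 from 57455649 to 57575910 (minus strand), was at 152, 149 and 149 CPM in Ctrl+vehicle, 236, 233 and 238 CPM in Ctrl+FGF2 and 149, 138 and 143 CPM in Y/T dKD+FGF2. Against the vehicle it was not called (log2 fold change −0.06, standard error 0.04, adjusted p = 0.122, 95% interval −0.14 to 0.01), and the replicates of the groups overlapped. Wwtr1 RNA was thus lower than in Ctrl+FGF2 by the knockdown contrast (−0.72, adjusted p = 2.6e-15) but at a level near that of the vehicle, whereas Yap1 RNA was below both controls. With upper-quartile scaling Wwtr1 was called slightly lower than in the vehicle (adjusted p = 0.0228).

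Most of the transcriptome differed from the vehicle state. Of the 13677 genes tested, 9551 were called (69.8%), 4662 of them higher (34.1%) and 4889 lower (35.7%). Most of these changes were small, with a median absolute log2 fold change of 0.53 among called genes. A change of at least 2-fold was called for 936 genes higher (6.84%) and 1144 lower (8.36%), of at least 4-fold for 202 and 337, and of at least 8-fold for 86 and 164. For 9784 genes (71.5%) no replicate of one group fell within the range of the other. Of the same genes, 67.6% were called between Ctrl+FGF2 and the vehicle and 24.5% between the knockdown and Ctrl+FGF2, contrasts that share libraries with this one. The median log2 fold change of all genes tested was −0.01, and no alternative scaling moved it by more than 0.03. A list with a share of called genes near these shares does not stand apart by its count. Genes picked as the largest rises and falls had to have groups that do not overlap, so this trait of theirs was fixed by the choice.

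**Figure D1:**
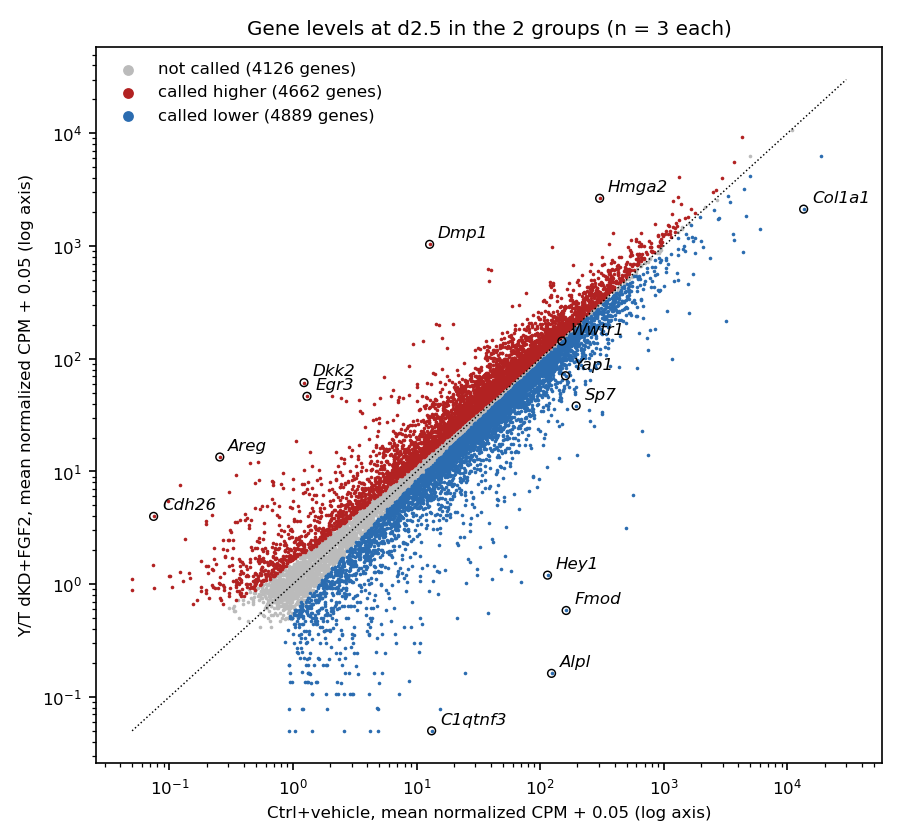
Mean level of each of the 13677 genes tested in the 3 Ctrl+vehicle libraries (horizontal, normalized CPM + 0.05, log axis) and the 3 Y/T dKD+FGF2 libraries (vertical, same scale), coloured by call, with the dotted line of equal levels. Dmp1, Dkk2, Egr3 and Areg lie far above the line and Alpl, Fmod, Hey1 and C1qtnf3 far below it, while Wwtr1 lies on it.

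The 5 largest rises among genes expressed highly enough to be named (mean log2 CPM of at least 1) were in 4 genes near 0 in the vehicle and in a bone matrix gene. Cdh26, a cadherin, had 1 count over the 3 vehicle libraries and 140 over the 3 knockdown libraries, a ratio of 158 after scaling (95% counting interval 27.8 to 6269). Nptx1, a neuronal pentraxin, had 2 and 193 counts (ratio 109, 29.7 to 903), and Krt12, a keratin, 3 and 271 (ratio 102, 34.4 to 496). These intervals cover counting error only. All 3 genes were also above the vehicle in every Ctrl+FGF2 library, for Cdh26 at 3.45, 3.80 and 3.19 CPM beside 4.35, 3.89 and 3.60 CPM with the knockdown. Areg, an Egf receptor ligand, was at 0.148, 0.139 and 0.331 CPM in Ctrl+vehicle and 13.1, 14.1 and 12.9 CPM in Y/T dKD+FGF2 (log2 fold change 5.998, standard error 0.24, adjusted p = 6.7e-20). It was as high in Ctrl+FGF2, at 12.99, 13.26 and 15.7 CPM. Dmp1, a phosphorylated protein of mineralizing matrix known from osteocytes, combined a large fold with a high level. The gene lies on chromosome 5 from 104202613 to 104214102 (GRCm38, plus strand). It was at 11.8, 13.5 and 12.8 CPM in Ctrl+vehicle, 497, 472 and 482 CPM in Ctrl+FGF2 and 1078, 975 and 1053 CPM in Y/T dKD+FGF2. That is 81.3-fold over the vehicle (log2 fold change 6.35, standard error 0.05, adjusted p = 2.4e-37), and the knockdown libraries were also above the Ctrl+FGF2 libraries (1.10 on the log2 scale, adjusted p = 2.7e-20).

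The 5 largest falls by the same rule included matrix and bone genes. C1qtnf3, a secreted C1q and Tnf related protein, had 525 counts over the vehicle libraries and 0 over the knockdown libraries, which by the limit of 3 counts over a group is at least 155-fold lower. Alpl, the alkaline phosphatase of osteoblasts that splits pyrophosphate, lies on chromosome 4 from 137741733 to 137796384 (GRCm38, minus strand). It was at 110.0, 137 and 124 CPM in Ctrl+vehicle and 0.087, 0.248 and 0 CPM in Y/T dKD+FGF2, or 4957 and 4 counts. Its count ratio was 1101 (95% counting interval 429.7 to 4042), and the Ctrl+FGF2 libraries were as low, at 0.15, 0.155 and 0.142 CPM. Megf6, a protein with Egf repeats, fell from 621 counts to 1 (ratio 552, 98.6 to 21823), and Prss35, a secreted protease-like protein, from 993 to 4 (ratio 221, 85.9 to 811). Fmod, a small leucine-rich proteoglycan that binds collagen fibrils, was at 161, 165 and 161 CPM in Ctrl+vehicle and at 0.522, 0.579 and 0.502 CPM in Y/T dKD+FGF2 (log2 fold change −8.22, standard error 0.10, adjusted p = 4.1e-33). That none of these 5 genes overlapped between the groups was a condition of their choice.

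Promoters of these 10 genes were searched for the Tead motif GGAATG and the AP-1 motifs TGAGTCA and TGACTCA on both strands (RefSeq, GRCm38.p6, 250 bases before to 50 after the start site). The table held 11 promoters of 9 of the genes, all but Nptx1. The Tead motif was in 1 of them and the AP-1 motifs in 0, beside 14.7% and 5.20% of the 32851 promoters in the table. The match was in the promoter of C1qtnf3, the gene with the largest fall, at position −96 from the start site, and is shown with the motif in capitals and its neighbours in lower case.
C1qtnf3, chr15:10952225-10952252, plus strand: cctgcggtgcaGGAATGtgatgaatgag
A match of letters is no binding site, and a window without a match says only that these letters are not in it. With 0 AP-1 matches, no AP-1 motif overlapped the Tead motif.

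Factors that direct osteoblast differentiation were mostly lower than in the vehicle. Of 17 tested, 5 were called higher and 10 lower, 1 and 6 of them by at least 2-fold. Over all genes, 34.1% were called higher and 35.7% lower. The median on the log2 scale was −0.32 beside −0.01 for all genes. Runx2, the factor required for osteoblast commitment, was at 177, 177 and 174 CPM in Ctrl+vehicle and 102, 102 and 109 CPM in Y/T dKD+FGF2 (log2 fold change −0.75, standard error 0.04, adjusted p = 4.3e-17). Sp7, which acts downstream of Runx2, was at 149.9, 238 and 198 CPM in Ctrl+vehicle, 29.1, 26.7 and 27.6 CPM in Ctrl+FGF2 and 39.8, 37.2 and 37.3 CPM in Y/T dKD+FGF2 (log2 fold change −2.36, standard error 0.10, adjusted p = 2.1e-19). The vehicle libraries spread widely for Sp7, replicate 1 being the lowest, yet all lay well above both FGF2 groups. With the knockdown Sp7 was somewhat above Ctrl+FGF2 (0.46, adjusted p = 0.00976), and for Runx2 that contrast was not called (0.09, adjusted p = 0.109). Hey1, a repressor of the basic helix-loop-helix class known as a Notch and Bmp target, had the largest fall of the list, from 91.5, 132 and 120.5 CPM to 1.13, 1.32 and 1.004 CPM (log2 fold change −6.62, standard error 0.16, adjusted p = 2.3e-25). That its groups did not overlap was a condition of its choice. In Ctrl+FGF2 it was as low, at 0.751, 1.01 and 0.851 CPM. Dlx5, a homeobox factor that promotes osteoblast differentiation, was at 2.22, 2.36 and 2.40 CPM in Ctrl+vehicle and 0.087, 0.165 and 0.251 CPM with the knockdown (log2 fold change −3.71, standard error 0.42, adjusted p = 3.9e-09). Msx2, a homeobox factor of skull growth, was at 5.39, 9.24 and 6.63 CPM in Ctrl+vehicle and 1.30, 1.16 and 0.585 CPM with the knockdown (log2 fold change −2.80, standard error 0.26, adjusted p = 4.3e-11). Both genes were low already in the vehicle, and their groups did not overlap. Runx1, a relative of Runx2, was at 9.90, 12.4 and 12.2 CPM in Ctrl+vehicle and 24.3, 27.96 and 30.4 CPM with the knockdown (log2 fold change 1.26, standard error 0.10, adjusted p = 5.0e-13). Twist1, a factor that restrains Runx2, was not called (log2 fold change −0.11, standard error 0.05, adjusted p = 0.0514). Members called higher with smaller changes were Twist2 (0.74), Atf4 (0.52), Foxc2 (0.40) and Msx1 (0.39).

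The bone matrix and mineralization genes split into opposite groups. Of 19 tested, 9 were called higher and 8 lower, 8 and 7 by at least 2-fold. Among all genes 6.84% and 8.36% were called by at least 2-fold. The median log2 fold change was −0.11, beside 0.25 for Ctrl+FGF2 against the vehicle and 0.52 for the knockdown against Ctrl+FGF2. The sign of that median is not stable, since it was 0.0438 without replicate 1 of Ctrl+vehicle and 0.98 over genes with at least 10 counts in every library. Lower than in the vehicle, besides Alpl, were Ibsp, an integrin-binding sialoprotein of mineralized matrix, and the receptors for parathyroid hormone (Pth1r) and vitamin D (Vdr). Ibsp was at 225, 218 and 221 CPM in Ctrl+vehicle, 44.6, 42.9 and 43.7 CPM in Ctrl+FGF2 and 87.3, 80.4 and 82.3 CPM in Y/T dKD+FGF2 (log2 fold change −1.41, standard error 0.04, adjusted p = 5.0e-24). It was thus between the 2 controls, and above Ctrl+FGF2 by 0.93 on the log2 scale (adjusted p = 3.6e-15). Pth1r was at 22.1, 27.01 and 25.8 CPM in Ctrl+vehicle and 0.609, 1.08 and 1.25 CPM with the knockdown (log2 fold change −4.65, standard error 0.17, adjusted p = 3.8e-21). Vdr was at 88.1, 88.3 and 83.8 CPM in Ctrl+vehicle and 9.22, 9.43 and 7.78 CPM with the knockdown (log2 fold change −3.30, standard error 0.08, adjusted p = 3.9e-26). Both receptors were lower in every knockdown library than in any vehicle library. They were low in Ctrl+FGF2 too, with means of 0.59 and 10.3 CPM, and neither was called against it (adjusted p = 0.181 and 0.140). Osteomodulin (Omd, −3.19), Bglap2 (−2.26), the osteocalcin gene of which near-identical copies share reads, and osteonectin (Sparc, −1.51) completed the 2-fold falls. Bglap itself was too low to be tested.

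Higher than in the vehicle were Enpp1, Ank, Phex, Mgp and Spp1. Enpp1, which makes pyrophosphate, an inhibitor of mineralization, was at 3.10, 2.99 and 3.98 CPM in Ctrl+vehicle, 13.1, 14.3 and 15.04 CPM in Ctrl+FGF2 and 42.7, 41.9 and 45.2 CPM in Y/T dKD+FGF2 (log2 fold change 3.70, standard error 0.10, adjusted p = 4.6e-24), and none of the 3 groups overlapped with another. Ank, which exports pyrophosphate, was at 175, 193 and 186 CPM in Ctrl+vehicle and 677, 668 and 687 CPM in Y/T dKD+FGF2 (log2 fold change 1.88, standard error 0.03, adjusted p = 7.3e-29). Both genes of pyrophosphate supply were thus higher while Alpl, which removes it, was close to 0. Phex, an endopeptidase whose loss causes phosphate wasting, was at 3.69, 3.40 and 2.98 CPM in Ctrl+vehicle and 17.3, 14.5 and 19.2 CPM with the knockdown (log2 fold change 2.33, standard error 0.13, adjusted p = 4.4e-16). Mgp, an inhibitor of calcification, was at 76.4, 58.1 and 69.01 CPM in Ctrl+vehicle and 296, 309.7 and 297 CPM with the knockdown (log2 fold change 2.15, standard error 0.05, adjusted p = 3.1e-25). The knockdown libraries were above every vehicle library for both. Spp1, or osteopontin, was already among the most abundant transcripts at 4374, 4203 and 4297 CPM in Ctrl+vehicle and reached 9424, 8999 and 9389 CPM with the knockdown (log2 fold change 1.11, standard error 0.03, adjusted p = 9.5e-26). The phosphate carriers Slc20a1 (0.88) and Slc20a2 (1.09) and the osteoclast factor Tnfsf11 (1.90, from 13 to 44 counts over a group) were higher too. For Dmp1, Enpp1, Phex, Mgp, Ank and Spp1 the order of the means was Ctrl+vehicle, Ctrl+FGF2, Y/T dKD+FGF2, and each step was called. Nearest to the vehicle was Smpd3, a sphingomyelinase of the skeleton, at 8.27, 5.56 and 6.88 CPM in Ctrl+vehicle and 6.003, 6.20 and 6.86 CPM with the knockdown (adjusted p = 0.483, 95% interval of the log2 fold change −0.40 to 0.17).

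**Figure D2:**
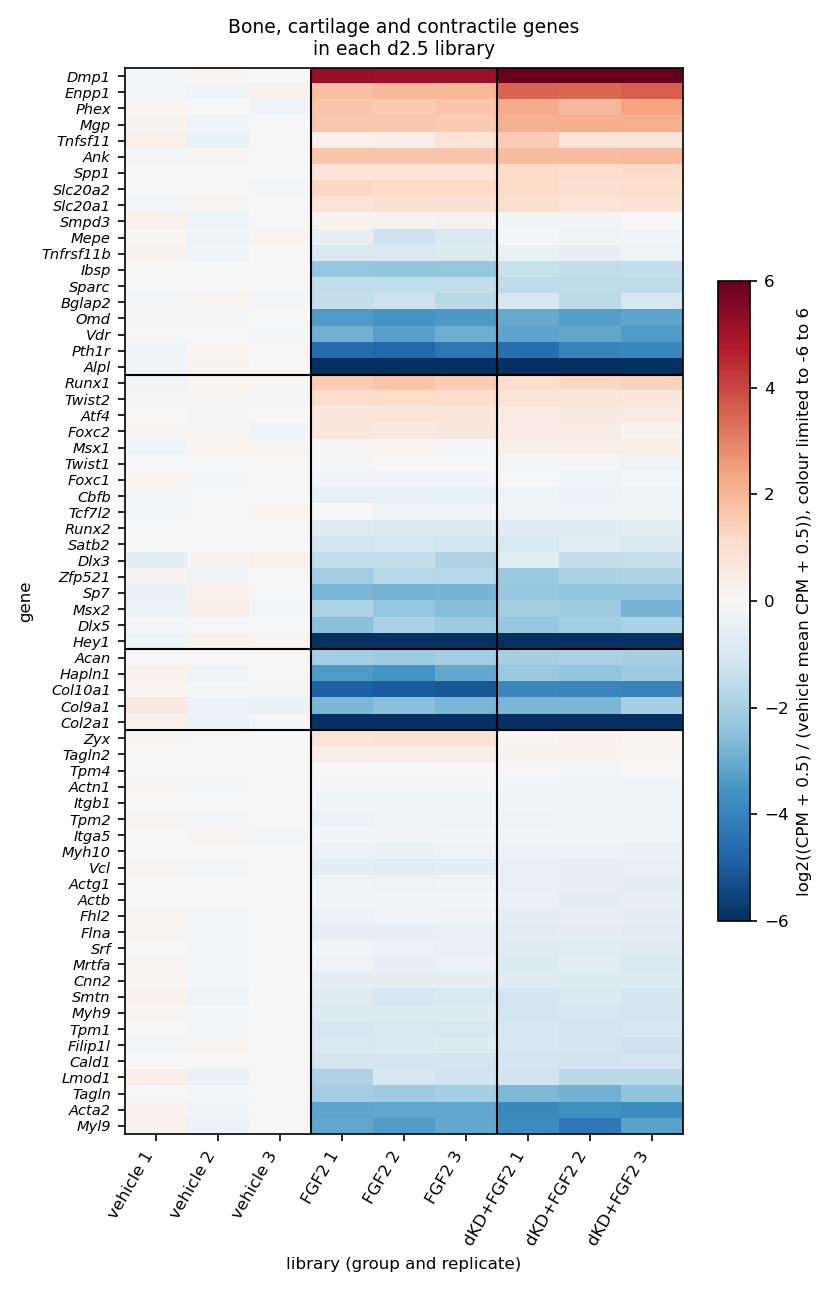
Level of each tested gene (rows) in each of the 9 d2.5 libraries (columns) as log2 of CPM + 0.5 relative to the vehicle mean, in 4 blocks from the top: bone matrix and mineralization, osteoblast factors, chondrocyte markers and actin and contractile genes. Within the bone block the upper rows (Dmp1, Enpp1, Phex, Mgp) are above and the lower rows (Alpl, Pth1r, Vdr) below the vehicle in all 6 libraries with FGF2, and the cartilage block is below it throughout.

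Cartilage markers were lower than in the vehicle. Of 6 chondrocyte markers, 5 were tested and all 5 were at least 2-fold lower than in the vehicle, and their summed level was 694 to 959 CPM in the vehicle and 70.8 to 71.9 CPM in the knockdown libraries. Col2a1, the main collagen of cartilage, was at 616, 389.9 and 475 CPM in Ctrl+vehicle, 1.35, 1.09 and 0.709 CPM in Ctrl+FGF2 and 3.39, 3.06 and 2.93 CPM in Y/T dKD+FGF2 (log2 fold change −7.30, standard error 0.16, adjusted p = 4.7e-27). Acan, the large proteoglycan of cartilage, was at 196, 190.3 and 188 CPM in Ctrl+vehicle and 47.5, 49.6 and 48.3 CPM with the knockdown (log2 fold change −1.98, standard error 0.04, adjusted p = 1.9e-26). Col2a1 and Hapln1 were above Ctrl+FGF2 with the knockdown (1.57, adjusted p = 0.0237, and 1.14, adjusted p = 7.9e-07), though far from the vehicle. The summed osteoblast markers, of which Col1a1 made up most, were at 14211 to 14346 CPM in the vehicle and 2291 to 2445 CPM in the knockdown libraries. The 6 NC markers summed to 409 to 431 CPM and 248 to 259 CPM, and Sox10, which defines early NC, was at 0 in all 6 libraries. Sox9 made up much of that fall, with means of 176 and 71.6 CPM. Ets1 and Snai2 were lower too, while Twist1 was not called (means 60.6 and 56.0 CPM). Markers of neurons, glia, endothelium, blood, epithelium and skeletal muscle summed to at most 25.6 CPM in any of the 6 libraries, with 1 to 3 markers of each list at 0, and those of adipocytes to 42.8 to 49.6 CPM. The part of cartilage or other cells in the results was not tested.

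Collagens and the proteins that modify and organize them were lower almost throughout. Of 44 genes tested, 37 were called lower, 23 of them by at least 2-fold, and 3 higher, the median of the list being −1.18 on the log2 scale, where 35.7% of all genes were called lower. Col1a1, the main protein of bone, was at 13684, 13484 and 13493 CPM in Ctrl+vehicle, 2410.5, 2284 and 2338 CPM in Ctrl+FGF2 and 2087, 2224 and 2063 CPM in Y/T dKD+FGF2 (log2 fold change −2.67, standard error 0.03, adjusted p = 4.7e-34). The knockdown libraries were slightly below Ctrl+FGF2 for it (−0.14, adjusted p = 4.9e-04), that is, further from the vehicle. Col5a1, which starts fibrils of type I collagen, was at 1603, 1584 and 1564 CPM in Ctrl+vehicle and 445, 481 and 448 CPM with the knockdown (log2 fold change −1.79, standard error 0.03, adjusted p = 4.0e-29). Lox, the enzyme that crosslinks collagen, was at 1302, 1286 and 1295 CPM in Ctrl+vehicle and 503, 478 and 505 CPM with the knockdown (log2 fold change −1.39, standard error 0.03, adjusted p = 6.1e-26). Fibril formation and crosslinking genes were thus lower together with the main collagen. Tenascin C (Tnc), an adhesion-modulating glycoprotein, was at 566, 569.9 and 567 CPM in Ctrl+vehicle and 5.65, 6.54 and 6.11 CPM with the knockdown (log2 fold change −6.54, standard error 0.06, adjusted p = 4.2e-37). Postn, a matrix protein of periosteum and sutures, was at 6245, 5767 and 5965 CPM in Ctrl+vehicle and 1412, 1397 and 1446 CPM with the knockdown (log2 fold change −2.08, standard error 0.03, adjusted p = 2.1e-31). Tnc was as low in Ctrl+FGF2, at 6.01, 4.89 and 4.82 CPM, and the knockdown was not called against it (0.22, adjusted p = 0.246). Both groups with FGF2 thus had little Tnc, whereas Postn remained abundant. The small leucine-rich proteoglycans Aspn (−5.75), Ogn (−4.87), Dcn (−3.98) and Lum (−2.39) fell with Fmod. Called higher were Col8a1 (1.92), Loxl3 (1.31) and P4ha1 (0.14), of which Col8a1, a short-chain collagen, rose from 37.9, 26.8 and 32.5 to 128, 116 and 123 CPM. Loxl2 (0.01, 95% interval −0.15 to 0.16) and fibronectin (Fn1, −0.07, adjusted p = 0.149) were not called.

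Genes of DNA replication and of mitosis were higher than in the vehicle without exception. All 44 replication genes tested were called higher, 29 by at least 2-fold (median 1.17 on the log2 scale), and so were all 44 mitosis genes, 35 by at least 2-fold, with a median of 1.17, where 34.1% of all genes were called higher. Mki67, a marker of cycling cells, was at 199, 213 and 204 CPM in Ctrl+vehicle, 404, 401 and 414 CPM in Ctrl+FGF2 and 451, 447 and 468 CPM in Y/T dKD+FGF2 (log2 fold change 1.15, standard error 0.03, adjusted p = 2.3e-23). The knockdown libraries were above Ctrl+FGF2 for it by 0.16 on the log2 scale (adjusted p = 3.7e-04), so it lay further from the vehicle than with FGF2 alone. Tk1, thymidine kinase, was at 21.7, 22.6 and 20.6 CPM in Ctrl+vehicle and 68.8, 74.7 and 70.5 CPM with the knockdown (log2 fold change 1.72, standard error 0.06, adjusted p = 6.1e-22). Gins1, a subunit of the replicative helicase, was at 5.84, 6.60 and 6.63 CPM in Ctrl+vehicle and 19.1, 17.3 and 20.7 CPM with the knockdown (log2 fold change 1.58, standard error 0.10, adjusted p = 1.9e-14). Enzymes and helicase subunits thus rose together. Ect2, which controls cytokinesis, was at 45.7, 49.2 and 52.1 CPM in Ctrl+vehicle and 174, 164 and 171 CPM with the knockdown (log2 fold change 1.79, standard error 0.05, adjusted p = 8.6e-25). Kif18a, a kinesin of chromosome alignment, was at 13.1, 15.3 and 14.5 CPM in Ctrl+vehicle and 40.7, 43.2 and 45.9 CPM with the knockdown (log2 fold change 1.59, standard error 0.07, adjusted p = 1.7e-18). The groups of these mitosis genes did not overlap, as their choice required. The smallest rises were those of Rfc1 and Gins4 (both 0.54) and of Bub3 (0.34). Against Ctrl+FGF2, the medians of the replication and mitosis lists were 0.11 and 0.10, with 14 and 19 genes called higher and 3 and 0 lower, where 24.5% of all genes were called.

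The G1 regulators were mixed. Of 25 tested, 17 were called higher and 6 lower, 7 and 1 by at least 2-fold (median 0.42). The shares over all genes were 34.1% higher and 35.7% lower. Cyclin D1 (Ccnd1), which growth factors induce, was at 121, 125 and 127 CPM in Ctrl+vehicle, 982, 992 and 1001 CPM in Ctrl+FGF2 and 1005, 975 and 962 CPM with the knockdown (log2 fold change 2.98, standard error 0.03, adjusted p = 3.8e-34), and against Ctrl+FGF2 it was not called (−0.02, adjusted p = 0.734). E2f2, an activator of S phase genes, was at 0.813, 1.04 and 0.497 CPM in Ctrl+vehicle and 7.22, 7.61 and 6.44 CPM with the knockdown (log2 fold change 3.13, standard error 0.21, adjusted p = 3.9e-14). Cdk6 (1.52), E2f8 (2.51) and Ccne2 (1.50) were higher as well. Lower were cyclin D3 (Ccnd3, −0.76), the retinoblastoma gene Rb1 (−0.37) and the Cdk inhibitors Cdkn1c (−1.11), Cdkn1a (−0.38) and Cdkn1b (−0.31). Cdkn1c was at 7.31, 6.32 and 5.22 CPM in Ctrl+vehicle and 3.22, 2.56 and 3.01 CPM with the knockdown (standard error 0.17, adjusted p = 1.1e-06). The inhibitor Cdkn2d was not called (log2 fold change −0.05, 95% interval −0.30 to 0.20).

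**Figure D3:**
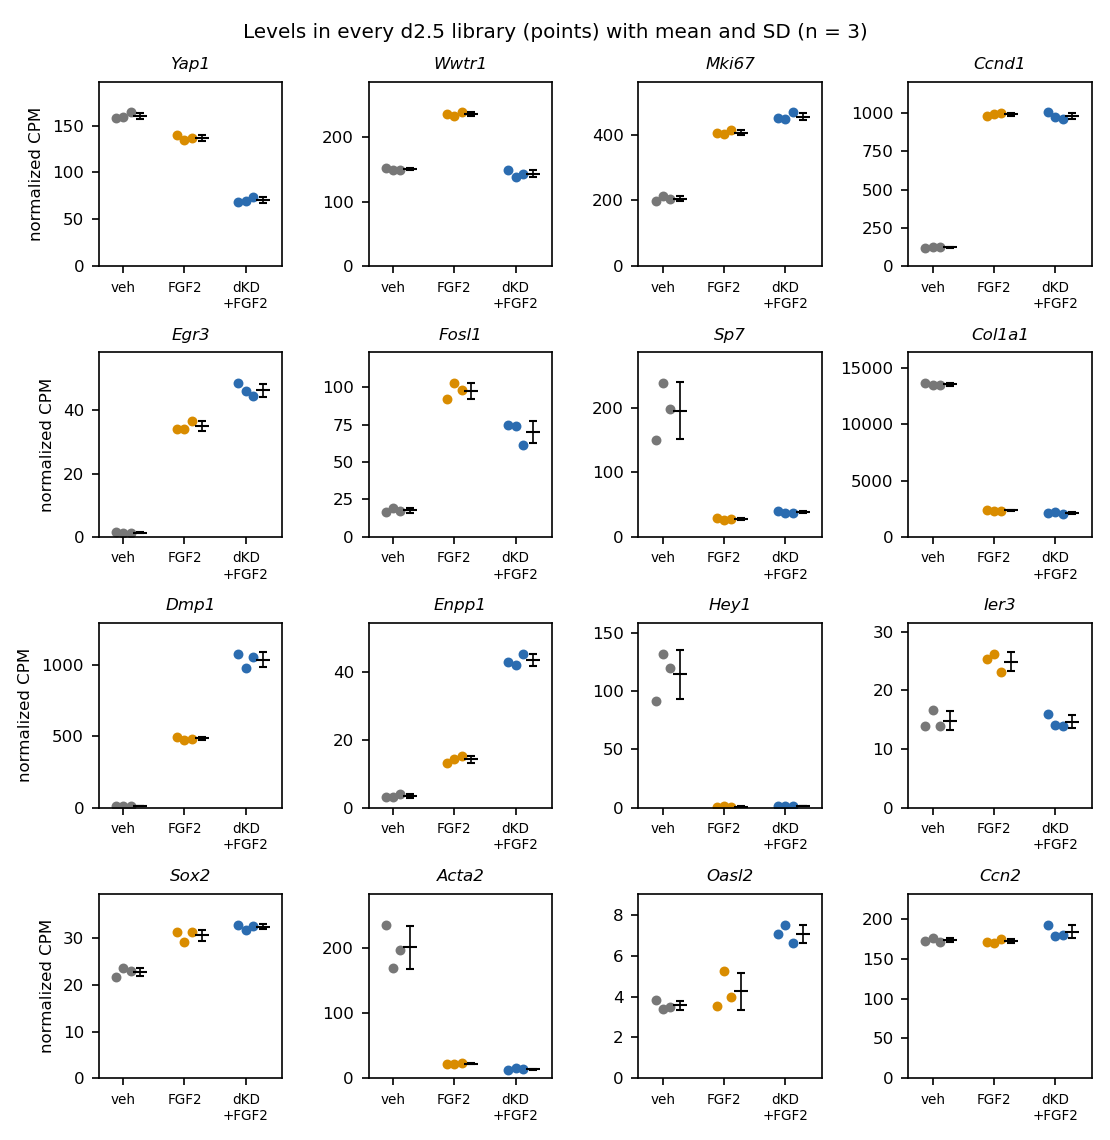
Normalized CPM of 16 genes in each d2.5 library of Ctrl+vehicle (veh), Ctrl+FGF2 (FGF2) and Y/T dKD+FGF2, on linear axes that start at 0, with the mean and SD of 3 libraries beside the points. Yap1 is lowest and Wwtr1 near the vehicle with the knockdown, Ccnd1, Col1a1 and Hey1 are as far from the vehicle as with FGF2 alone or nearly so, Dmp1, Enpp1 and Mki67 are further from it, and Ier3 is back among the vehicle values.

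Feedback genes of the Erk pathway were high. Of 28 feedback and early response genes tested, 21 were called higher and 5 lower, 16 and 3 by at least 2-fold, and the median of the list was 1.25 on the log2 scale, where 34.1% of all genes were called higher. Dusp6, the phosphatase that inactivates Erk, was at 15.7, 15.8 and 16.2 CPM in Ctrl+vehicle, 133, 137 and 135 CPM in Ctrl+FGF2 and 155, 151 and 149 CPM in Y/T dKD+FGF2 (log2 fold change 3.26, standard error 0.05, adjusted p = 1.8e-30). Spry4, a Sprouty inhibitor of receptor signaling, was at 4.80, 5.14 and 5.14 CPM in Ctrl+vehicle and 46.02, 44.9 and 43.4 CPM with the knockdown (log2 fold change 3.15, standard error 0.09, adjusted p = 2.3e-24). Inhibitors at the receptor and at Erk were thus both far above the vehicle. Etv5, an Ets factor induced by Fgf, was at 12.6, 10.97 and 10.3 CPM in Ctrl+vehicle and 145, 143 and 147 CPM with the knockdown (log2 fold change 3.68, standard error 0.06, adjusted p = 2.3e-30). Egr3, an immediate early factor, was at 1.48, 1.11 and 1.16 CPM in Ctrl+vehicle and 48.6, 45.99 and 44.5 CPM with the knockdown (log2 fold change 5.20, standard error 0.12, adjusted p = 2.2e-26). Etv4 (3.86), Dusp2 (4.09) and Dusp4 (3.20) rose in like measure. The AP-1 genes divided, with Fosl1 and Jun (1.19) higher but Junb (−1.22), Fos (−1.10) and Fosl2 (−0.92) lower. Fosl1 was at 16.5, 19.4 and 17.1 CPM in Ctrl+vehicle, 91.997, 103 and 97.8 CPM in Ctrl+FGF2 and 74.99, 73.8 and 61.3 CPM with the knockdown (log2 fold change 1.98, standard error 0.08, adjusted p = 2.4e-20). It was below Ctrl+FGF2 with the knockdown (−0.48, adjusted p = 3.9e-07) and so lay between the controls. Dusp10, a phosphatase of the stress kinases, had the largest fall of the list. Dusp10 was at 17.8, 22.6 and 18.4 CPM in Ctrl+vehicle and 5.74, 5.05 and 7.19 CPM with the knockdown (log2 fold change −1.71, standard error 0.14, adjusted p = 1.5e-12). Ier3, an early response gene of cell survival, was at 13.9, 16.7 and 13.9 CPM in Ctrl+vehicle, 25.3, 26.2 and 23.1 CPM in Ctrl+FGF2 and 15.9, 14.1 and 13.9 CPM with the knockdown, and was not called against the vehicle (95% interval −0.22 to 0.17).

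The largest rises among growth factor ligands were those of Areg, Btc and Ereg, which bind receptors of the Egf family. Of 28 ligands tested, 17 were called higher and 6 lower, 11 and 3 by at least 2-fold (median 0.52). For all genes the shares were 34.1% and 35.7%. Besides Areg, Ereg was at 5.54, 5.14 and 5.55 CPM in Ctrl+vehicle and 70.6, 67.3 and 70.3 CPM with the knockdown (log2 fold change 3.68, standard error 0.08, adjusted p = 2.4e-27). Btc was at 0.517, 0.694 and 0.663 CPM in Ctrl+vehicle, 4.43, 4.65 and 4.33 CPM in Ctrl+FGF2 and 7.31, 8.44 and 8.95 CPM with the knockdown (log2 fold change 3.70, standard error 0.21, adjusted p = 4.2e-16), and its 3 groups did not overlap. Hbegf (1.71) and Nrg1 (1.63), which bind the same receptor family, were higher too, while Egf itself was lower (−0.74, adjusted p = 0.048), a call lost under 11 of 17 alternatives. Of the Fgf ligands, Fgf1 (2.91), Fgf10 (1.12) and Fgf7 (1.01) were higher. Lif, a cytokine of stem cells, was at 1.40, 0.903 and 1.16 CPM in Ctrl+vehicle and 7.39, 5.05 and 6.86 CPM with the knockdown (log2 fold change 2.47, standard error 0.21, adjusted p = 6.5e-12). Pdgfd, a platelet-derived growth factor, was at 9.01, 7.50 and 8.28 CPM in Ctrl+vehicle and 1.30, 0.91 and 0.753 CPM with the knockdown (log2 fold change −3.05, standard error 0.21, adjusted p = 5.5e-14). Lower with Pdgfd were the chemokine Cxcl12 (−1.66) and angiopoietin 1 (Angpt1, −1.59). Csf1, the growth factor of macrophages and osteoclasts, was at 419, 379 and 393 CPM in Ctrl+vehicle and 391, 406 and 399 CPM with the knockdown, where the groups overlapped and it was not called (log2 fold change 0.01, 95% interval −0.06 to 0.08), and the cells' own Fgf2 RNA was not called (log2 fold change 0.10, adjusted p = 0.507).

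Targets usually credited to Yap and Taz lay on both sides of the vehicle. Of 25 tested, 13 were called higher and 10 lower, 1 and 3 by at least 2-fold, and the median log2 fold change was 0.08. Genes at large lay on both sides too, with 34.1% of all genes called higher and 35.7% lower (6.84% and 8.36% by at least 2-fold). Ccn2, a matricellular protein, was at 172, 176 and 172 CPM in Ctrl+vehicle, 171, 169.6 and 175 CPM in Ctrl+FGF2 and 193, 179 and 179.7 CPM in Y/T dKD+FGF2 (log2 fold change 0.08, standard error 0.04, adjusted p = 0.0454), a call close to the threshold and lost under 11 of 18 alternatives. The 3 groups nearly coincided for it. Ccn1, its relative, was at 213, 248 and 234 CPM in Ctrl+vehicle and 135, 132 and 125 CPM with the knockdown (log2 fold change −0.82, standard error 0.04, adjusted p = 1.6e-16). Lower too were Amotl2 (−1.10) and Rbms3 (−1.07). Ankrd1, a nuclear ankyrin repeat protein, was at 10.6, 9.93 and 9.78 CPM in Ctrl+vehicle, 30.8, 28.1 and 30.3 CPM in Ctrl+FGF2 and 18.01, 19.2 and 21.2 CPM with the knockdown (log2 fold change 0.95, standard error 0.09, adjusted p = 1.7e-10). It was thus below Ctrl+FGF2 (−0.61, adjusted p = 5.6e-07) but stayed above the vehicle. Axl, a receptor tyrosine kinase, had the largest rise of the list and Gadd45b, a stress response gene, the largest fall. Axl was at 332, 315 and 311 CPM in Ctrl+vehicle and 694, 691 and 666 CPM with the knockdown (log2 fold change 1.10, standard error 0.03, adjusted p = 1.3e-23). Gadd45b was at 50.8, 66.2 and 57.6 CPM in Ctrl+vehicle and 17.4, 18.03 and 16.6 CPM with the knockdown (log2 fold change −1.75, standard error 0.08, adjusted p = 2.7e-18). That their groups did not overlap was a condition of their choice. Igfbp3 was not called (log2 fold change −0.02, 95% interval −0.23 to 0.18).

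Actin and contractile genes driven by serum response factor (Srf) were lower. Of 25 tested, 22 were called lower, 9 by at least 2-fold, and 2 higher, with a median of −0.66. Among all genes 35.7% were called lower. Acta2, smooth muscle actin, was at 235, 169 and 197 CPM in Ctrl+vehicle, 21.7, 22.6 and 22.8 CPM in Ctrl+FGF2 and 13.05, 15.1 and 13.6 CPM in Y/T dKD+FGF2 (log2 fold change −3.85, standard error 0.09, adjusted p = 1.8e-25), and it was further from the vehicle than with FGF2 alone (−0.68, adjusted p = 2.5e-04). Myl9, a myosin light chain, was at 13.4, 8.40 and 11.1 CPM in Ctrl+vehicle and 0.348, 0.0827 and 0.753 CPM with the knockdown (log2 fold change −4.76, standard error 0.29, adjusted p = 2.1e-15). Tagln, or transgelin, was at 11.2, 10.6 and 11.3 CPM in Ctrl+vehicle and 1.30, 1.08 and 1.67 CPM with the knockdown (log2 fold change −3.02, standard error 0.17, adjusted p = 2.8e-16). For all 3 genes the highest knockdown library was below the lowest vehicle library, a condition of the choice of Myl9. Srf was at 46.8, 43.8 and 45.3 CPM in Ctrl+vehicle and 25.9, 27.4 and 26.3 CPM with the knockdown (log2 fold change −0.77, standard error 0.06, adjusted p = 3.8e-12). Its coactivator Mrtfa was lower by a log2 fold change of −0.81. Against Ctrl+FGF2 14 of the 25 genes were lower and 1 higher, where 24.5% of all genes were called. Zyx, a focal adhesion protein, was at 199, 185 and 184 CPM in Ctrl+vehicle, 335, 343 and 343 CPM in Ctrl+FGF2 and 202, 222 and 206 CPM with the knockdown (log2 fold change 0.15, standard error 0.04, adjusted p = 0.00131), close to the vehicle. Tpm4, a tropomyosin, was not called (log2 fold change −0.02, 95% interval −0.08 to 0.04).

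**Figure D4:**
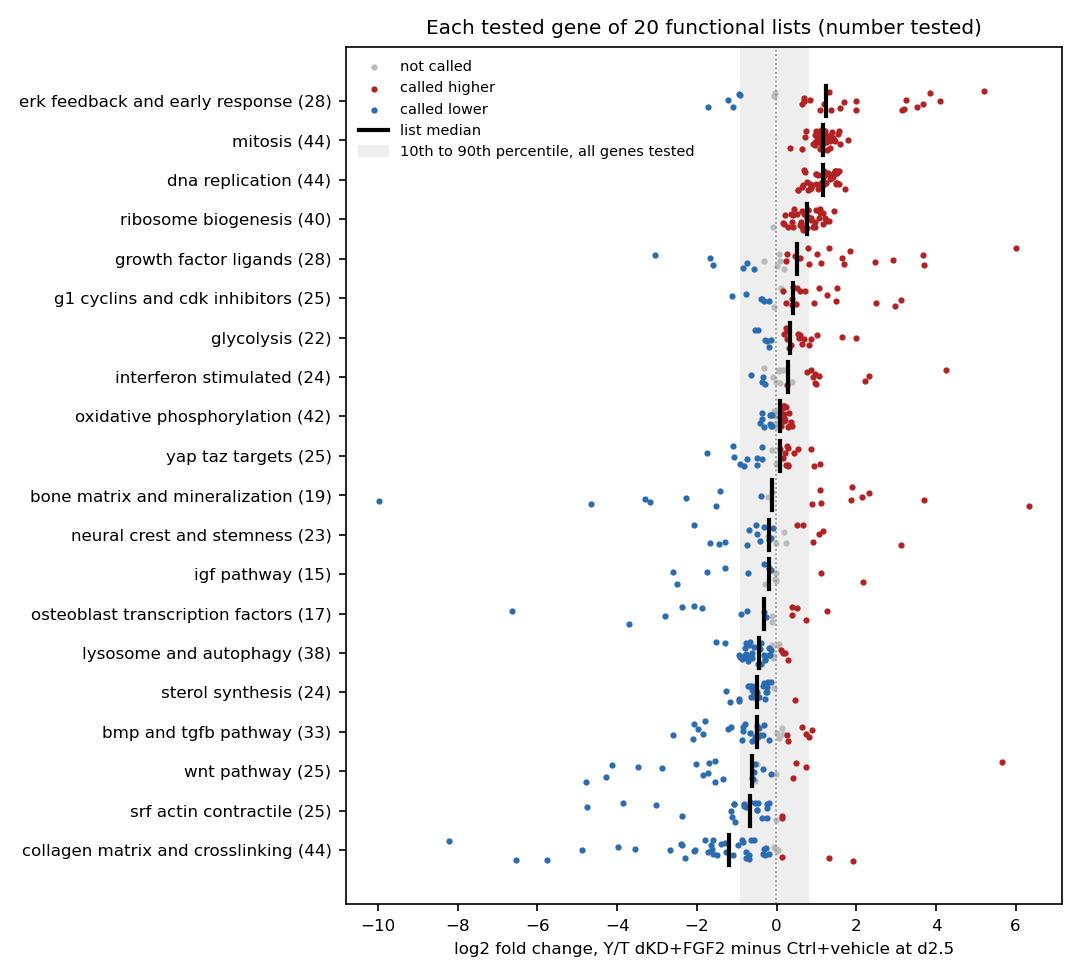
Log2 fold change from the vehicle to Y/T dKD+FGF2 at d2.5 (horizontal) for each tested gene of 20 functional lists (rows, sorted by their median, number tested in brackets), coloured by call, with the list median as a black bar and the 10th to 90th percentile of all genes (−0.89 to 0.80) in grey. The Erk feedback, mitosis and replication lists have medians above the grey band, the collagen list has one below it, and the bone matrix list spreads over both sides.

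Wnt pathway genes were largely lower. Of 25 tested, 18 were called lower, 12 by at least 2-fold, and 4 higher (median −0.63), where 35.7% of all genes were called lower. Axin2, a feedback target of Wnt signaling, was at 1.92, 1.60 and 1.74 CPM in Ctrl+vehicle and 0.783, 0.579 and 0.418 CPM with the knockdown (log2 fold change −1.55, standard error 0.32, adjusted p = 9.2e-05). Wnt4, a ligand, was at 23.9, 30.3 and 26.5 CPM in Ctrl+vehicle and 1.57, 1.24 and 1.76 CPM with the knockdown (log2 fold change −4.14, standard error 0.15, adjusted p = 4.4e-21). A target and a ligand were thus both lower, with no overlap of the groups. Secreted antagonists were lower too, among them Frzb, Wif1 (−2.87) and Sfrp1 (−1.70). Frzb was at 15.9, 14.8 and 14.001 CPM in Ctrl+vehicle and 1.04, 0.662 and 0.585 CPM with the knockdown (log2 fold change −4.28, standard error 0.19, adjusted p = 4.4e-19). The antagonist Dkk2 went the other way, from 1.40, 1.39 and 0.746 CPM in Ctrl+vehicle to 62.3, 56.9 and 64.8 CPM with the knockdown (log2 fold change 5.66, standard error 0.12, adjusted p = 2.5e-27), beside 55.4, 56.8 and 58.2 CPM in Ctrl+FGF2. The receptor Fzd7 was not called (log2 fold change −0.01, 95% interval −0.11 to 0.10).

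In the Bmp and Tgfb pathway 22 of 33 genes tested were called lower, 8 by at least 2-fold (median −0.50). A further 6 were called higher, 0 by at least 2-fold. Over all genes the shares were 35.7% lower and 34.1% higher. The immediate targets of Bmp signaling were among the lower ones. Id2 was at 49.05, 76.5 and 61.5 CPM in Ctrl+vehicle and 14.8, 14.97 and 14.7 CPM with the knockdown (log2 fold change −2.08, standard error 0.11, adjusted p = 8.6e-17). Id3 was at 289, 399 and 354 CPM in Ctrl+vehicle and 151, 156 and 144 CPM with the knockdown (log2 fold change −1.21, standard error 0.07, adjusted p = 9.6e-17). The Id proteins block basic helix-loop-helix factors. Smad6, an inhibitory Smad, was at 34.6, 55.4 and 46.4 CPM in Ctrl+vehicle and 7.22, 7.86 and 7.36 CPM with the knockdown (log2 fold change −2.60, standard error 0.13, adjusted p = 1.4e-17). Bambi, a decoy receptor, was at 40.7, 58.96 and 55.5 CPM in Ctrl+vehicle and 16.5, 14.3 and 14.1 CPM with the knockdown (log2 fold change −1.79, standard error 0.10, adjusted p = 5.7e-16). For all 4 genes replicate 1 of Ctrl+vehicle was the lowest and replicate 2 the highest vehicle library. Every vehicle library was above every knockdown library, which was a condition of the choice of Id2 and Smad6. Ltbp1, which stores latent Tgfb in matrix, rose most. Ltbp1 was at 609, 596 and 594 CPM in Ctrl+vehicle and 1089, 1140.2 and 1099.8 CPM with the knockdown (log2 fold change 0.89, standard error 0.03, adjusted p = 4.1e-22). The ligand Bmp2 was higher (0.82) while Bmp4 was not called (0.15, adjusted p = 0.532), nor was the receptor Bmpr1a (0.07, adjusted p = 0.0573).

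The Igf genes gave 2 calls higher and 8 lower of 15 tested (median −0.19). In total 66.7% were called, beside 69.8% of all genes, so the list does not stand apart by its count. Igf1, a growth factor of bone, was at 7.53, 7.22 and 5.88 CPM in Ctrl+vehicle and 1.04, 1.16 and 1.17 CPM with the knockdown (log2 fold change −2.61, standard error 0.21, adjusted p = 1.5e-12). Irs1, a substrate of the receptor, was at 49.5, 53.1 and 47.7 CPM in Ctrl+vehicle and 7.48, 9.60 and 9.28 CPM with the knockdown (log2 fold change −2.51, standard error 0.08, adjusted p = 6.9e-22). Ligand and substrate were thus both lower. Binding proteins Igfbp7 (−1.75) and Igfbp4 (−1.30) were lower. The stanniocalcin Stc2, an inhibitor of the protease Pappa, was higher. Stc2 was at 6.57, 6.39 and 6.13 CPM in Ctrl+vehicle and 27.8, 29.8 and 28.1 CPM with the knockdown (log2 fold change 2.16, standard error 0.10, adjusted p = 1.6e-18). The insulin receptor Insr was not called (log2 fold change −0.02, 95% interval −0.13 to 0.09).

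NC and stemness genes moved in both directions. Of 23 tested, 6 were called higher and 13 lower, 3 and 4 by at least 2-fold (median −0.19). Among all genes 34.1% were called higher and 35.7% lower. Hmga2, a chromatin protein of embryonic tissue, was at 276, 334 and 299.98 CPM in Ctrl+vehicle, 2239, 2260.2 and 2298 CPM in Ctrl+FGF2 and 2747, 2557 and 2657 CPM in Y/T dKD+FGF2 (log2 fold change 3.13, standard error 0.04, adjusted p = 9.4e-32). None of the groups overlapped, which its choice required for the knockdown and the vehicle. Sox2, a factor of stem cells, was at 21.7, 23.5 and 22.9 CPM in Ctrl+vehicle and 32.9, 31.8 and 32.5 CPM with the knockdown (log2 fold change 0.51, standard error 0.07, adjusted p = 6.7e-08), beside 31.3, 29.1 and 31.2 CPM in Ctrl+FGF2, from which it was not called different (adjusted p = 0.367). Klf4 was at 32.9, 35.8 and 38.6 CPM in Ctrl+vehicle, 75.5, 74.3 and 81.6 CPM in Ctrl+FGF2 and 68.2, 65.6 and 66.8 CPM with the knockdown (log2 fold change 0.90, standard error 0.06, adjusted p = 6.4e-15). Myc, a growth regulator, was at 64.4, 64.2 and 59.6 CPM in Ctrl+vehicle, 156, 165 and 159 CPM in Ctrl+FGF2 and 130.3, 136 and 129 CPM with the knockdown (log2 fold change 1.07, standard error 0.04, adjusted p = 8.6e-20). Both were lower than in Ctrl+FGF2 (Klf4 −0.21, adjusted p = 0.00317, and Myc −0.28, adjusted p = 3.1e-06) but remained above the vehicle. Gdpd5, a phosphodiesterase of neuronal differentiation, was at 6.87, 6.18 and 6.54 CPM in Ctrl+vehicle, 12.02, 10.7 and 10.99 CPM in Ctrl+FGF2 and 7.48, 8.44 and 6.27 CPM with the knockdown, and was not called against the vehicle (95% interval −0.09 to 0.45). Also called lower were Snai1 (−1.68), Sox9 (−1.30), Ets1 (−0.73), Snai2 (−0.69) and Zeb2 (−0.52), and Pax3 was not called (log2 fold change −0.02, 95% interval −0.42 to 0.38).

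Ribosome biogenesis and sterol synthesis moved apart. Of 40 ribosome biogenesis genes tested, 39 were called higher and 0 lower, with 9 at 2-fold or more (median 0.76). Among all genes 34.1% were called higher. Dkc1, the pseudouridine synthase of ribosomal RNA, was at 60.6, 74.03 and 67.8 CPM in Ctrl+vehicle and 183, 179 and 184 CPM with the knockdown (log2 fold change 1.43, standard error 0.05, adjusted p = 4.2e-22). Wdr43, a nucleolar processing factor, was at 101, 102 and 103 CPM in Ctrl+vehicle and 256, 245 and 257 CPM with the knockdown (log2 fold change 1.31, standard error 0.04, adjusted p = 2.0e-23). Ncl, or nucleolin, was at 1136, 1221 and 1184 CPM in Ctrl+vehicle and 2484, 2408 and 2609 CPM with the knockdown (log2 fold change 1.08, standard error 0.03, adjusted p = 2.0e-23). The groups did not overlap for any of the 3, which was a condition of the choice of Dkc1 and Wdr43. Rrp1 was the exception, not called (−0.08, adjusted p = 0.0522). Of 24 sterol genes, 22 were called lower, 2 by at least 2-fold, and 1 higher (median −0.49), where 35.7% of all genes were called lower. Mvd, which makes isopentenyl pyrophosphate, was at 56.7, 50.8 and 57.2 CPM in Ctrl+vehicle, 33.9, 33.7 and 33.7 CPM in Ctrl+FGF2 and 22.7, 24.9 and 21.1 CPM with the knockdown (log2 fold change −1.26, standard error 0.07, adjusted p = 6.5e-17). Its 3 groups did not overlap, which its choice required for the knockdown and the vehicle. Hmgcs1, an early enzyme of the pathway, was at 855, 810.5 and 844 CPM in Ctrl+vehicle and 441, 421 and 437 CPM with the knockdown (log2 fold change −0.95, standard error 0.03, adjusted p = 3.0e-22). Msmo1, a sterol methyl oxidase, was not called (log2 fold change −0.06, adjusted p = 0.109). Against Ctrl+FGF2 18 of the sterol genes were lower and 0 higher, where 24.5% of all genes were called.

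In all, 654 genes differed from both controls in the same direction while the controls were not called different from each other, 266 of them higher and 388 lower, and 22 of the 654 by at least 2-fold from the vehicle. Trim30a, an interferon-induced regulator, was at 3.25, 2.99 and 3.23 CPM in Ctrl+vehicle, 3.60, 5.04 and 3.33 CPM in Ctrl+FGF2 and 6.09, 7.36 and 6.27 CPM with the knockdown (log2 fold change 1.06, standard error 0.17, adjusted p = 1.6e-06). Oasl2, a relative of the interferon-induced oligoadenylate synthetases, was at 3.84, 3.40 and 3.48 CPM in Ctrl+vehicle, 3.53, 5.27 and 3.97 CPM in Ctrl+FGF2 and 7.05, 7.53 and 6.61 CPM with the knockdown (log2 fold change 0.98, standard error 0.16, adjusted p = 2.0e-06). Gm15867, an antisense gene, was at 1.48, 1.39 and 1.82 CPM in Ctrl+vehicle, 2.10, 1.32 and 1.92 CPM in Ctrl+FGF2 and 3.91, 3.39 and 2.09 CPM with the knockdown (log2 fold change 1.01, standard error 0.25, adjusted p = 6.6e-04). These 3 were the largest rises of that kind. Epn3, an epsin of endocytosis, was at 1.77, 2.50 and 3.31 CPM in Ctrl+vehicle, 2.25, 1.94 and 1.92 CPM in Ctrl+FGF2 and 0.957, 0.827 and 1.25 CPM with the knockdown (log2 fold change −1.30, standard error 0.28, adjusted p = 1.4e-04). Slc39a7, a zinc transporter, was at 2.73, 3.19 and 2.40 CPM in Ctrl+vehicle, 2.40, 2.25 and 1.84 CPM in Ctrl+FGF2 and 0.957, 1.41 and 1.09 CPM with the knockdown (log2 fold change −1.27, standard error 0.25, adjusted p = 4.0e-05). Rab39b, a small GTPase, was at 6.57, 6.81 and 7.46 CPM in Ctrl+vehicle, 4.58, 6.59 and 6.17 CPM in Ctrl+FGF2 and 3.04, 3.31 and 2.93 CPM with the knockdown (log2 fold change −1.16, standard error 0.16, adjusted p = 2.3e-07). These 3 were the largest falls by the same rule. These 6 are weakly expressed, and the rule that picked them used these contrasts, so their levels are a description.

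After 5 days (d5) the same contrast, made in another 6 libraries, differed in size from that at d2.5 for 59.3% of 14198 genes by the interaction term of a fit over all 18 libraries. Dmp1 was still far above the vehicle at d5 (5.10 on the log2 scale, adjusted p = 7.1e-22), and Igf1 was still below it (−1.53, adjusted p = 6.4e-22). Alpl, nearly absent at d2.5, was at −0.80 (adjusted p = 2.2e-09). The labels give each day its own batch, so day and batch cannot be told apart.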

How the data were processed

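RNA-seq was made from poly(A) libraries of O9-1 cells, and the raw read counts per gene were deposited by the authors. The submitters' processing notes name FastQC, STAR, Picard and featureCounts and the build mm10, with no roles or order. Each file holds unstranded counts and both strands. The reverse-strand counts were used, since they held 96.2% to 96.5% of stranded counts in the 9 libraries of d2.5. Reads mapped to several places are not counted in them, so near-identical genes are understated. Entries that name no gene, 31.0% to 34.4% of the 6 libraries compared, were left out. Of 55335 identifiers, 55154 were matched to GENCODE M21 (GRCm38), regardless of version.

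The 9 libraries of d2.5 entered 1 edgeR (4.0.16, R 4.3.3) quasi-likelihood fit with filterByExpr and TMM factors and no covariate, and the 6 libraries of the comparison were contrasted in it. The standard error of a log2 fold change was derived from its F statistic. P-values were adjusted by Benjamini-Hochberg over 13677 genes, with 0.05 as the threshold. Genes near 0 counts are given by summed counts with exact 95% intervals of the ratio, or by a limit of 3 counts. Alternatives were DESeq2 (1.42.0), other scalings, filters, strands, sample sets, thresholds, a replicate block and leaving out each library.

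Named genes were Yap1 and Wwtr1, the 5 largest rises and falls, and the largest rise and fall of each of 20 functional lists. The not called gene nearest the vehicle was added for each list that had any. Also named were the 3 largest rises and falls of genes called against both controls where those were not called different. The last were 12 genes the study names. Called ones needed a mean level of 1 or more (log2 CPM) and groups that do not overlap. Other genes of the lists were named as examples after their values were seen. A gene of the sterol list is not reported here. The members and lists were chosen with earlier results of these data known. On simulated counts for this comparison (13482 genes, 198 changed), 94% of 2-fold and 77.6% of 1.5-fold changes were recovered and 6.59% of calls were false. Far fewer genes were changed there than the 9551 called in the data, so these rates need not hold for the data.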

Additional observations from a re-analysis of the deposited data

Results flagged for a closer look

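The same contrast exists after 5 days (d5), and its size differed from that at d2.5 for many of the genes named above, by the interaction term of edgeR's quasi-likelihood fit over all 18 libraries (Benjamini-Hochberg adjusted p under 0.05, called for 59.3% of 14198 genes). Values in parentheses are the d5 minus d2.5 difference of the log2 fold change of Y/T dKD+FGF2 against Ctrl+vehicle. The labels give each day its own batch, so day and batch cannot be told apart.

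Genes of bone and matrix that were far below the vehicle at d2.5 were closer to it, or above it, at d5. Large positive differences were found for C1qtnf3 (9.88), Alpl (9.16), Fmod (8.03), Megf6 (7.99), Hey1 (6.75) and Prss35 (5.39), where values of genes near 0 counts at d2.5 depend on the prior count. In the d5 libraries Alpl was at a log2 fold change of −0.80 (adjusted p = 2.2e-09), Fmod at −0.17 (adjusted p = 3.2e-04) and Hey1 at 0.15 (adjusted p = 0.371). Positive differences were also found for the bone and matrix genes Sp7 (3.30), Col1a1 (2.11), Ibsp (1.89), Runx2 (1.27), Smpd3 (0.88) and Loxl2 (0.25). Sp7, Ibsp and Runx2 were above the vehicle at d5 (0.97, 0.51 and 0.54, adjusted p = 2.5e-07, 0.00166 and 1.8e-10). Signaling and contractile genes with a positive difference were Myl9 (5.06), Frzb (4.70), Smad6 (3.17), Id2 (2.22), Gadd45b (2.02), Dusp10 (1.72), Pdgfd (1.70), Cdkn1c (1.41), Igf1 (1.05), Ier3 (0.94), Zyx (0.31), Insr (0.29) and Tpm4 (0.17). The remaining positive differences were those of Wipi1 (1.50), Slc39a7 (1.34), Cox6a1 (0.60), Rrp1 (0.50), Stat2 (0.33) and Cox6c (0.15).

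Cell cycle genes that were above the vehicle at d2.5 had negative differences, E2f2 (−3.37), Ect2 (−2.92), Kif18a (−2.71), Mki67 (−2.28), Tk1 (−2.25) and Gins1 (−1.89). Mki67 was below the vehicle at d5 (−1.11, adjusted p = 5.9e-07). The growth and stemness genes Klf4 (−2.16), Hmga2 (−1.86), Dkc1 (−1.69), Wdr43 (−1.57), Myc (−1.32) and Fosl1 (−1.07) moved the same way, and so did Stc2 (−4.65), Dkk2 (−4.40), Egr3 (−3.77), Axl (−1.12), Ltbp1 (−0.95), Fzd7 (−0.53), Igfbp3 (−0.50) and Bmpr1a (−0.22) among the signaling genes. Dmp1 stayed far above the vehicle at d5 (5.10, adjusted p = 7.1e-22) despite a difference of −1.27. Cdh26 (−7.96) was not called at d5 (adjusted p = 0.109), while Nptx1 (−2.40) was still higher. Col8a1 (−3.11) was below the vehicle at d5 (−1.16, adjusted p = 3.3e-17), and Runx1 (−0.76) was less far above it. Wwtr1, not called at d2.5, was lower at d5 (−0.90, adjusted p = 1.4e-17, difference −0.85). The others were Ifi44 (−2.64), Msmo1 (−2.02), Slc2a3 (−1.24), Rab39b (−1.06), Trim30a (−1.01), Pfkfb3 (−0.58), Ctsl (−0.48) and Cox5a (−0.33).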

How the results depend on the processing

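Alternatives gave 4219 genes called higher and 4377 lower with DESeq2, 4422 and 5158 with upper-quartile factors, 4870 and 5098 without a filter on low counts, and between 4440 and 4681 higher and 4625 and 4925 lower when 1 library was left out, beside 4662 and 4889. No gene called in both fits changed direction under any of these, and DESeq2 kept 8324 of the 9551 calls. Correlations of same-numbered deviations were −0.09 to 0.01, beside −0.04 to 0.12 for different numbers. So few values cannot settle whether the replicate numbers pair the libraries. With the replicate number as a block 4652 genes were called higher and 4866 lower. Of the called genes given by name, Ccn2 lost its call under 11 of 18 alternatives (adjusted p up to 0.228) and Egf under 11 of 17 (up to 0.286), and no other lost it, the demand for 2-fold or adjusted p under 0.01 not being applied to single genes. Twist1, Wwtr1, Bmpr1a, Rrp1 and Msmo1, close to the threshold, were called under 1 to 4 alternatives each. The sign of the bone matrix median (−0.11) reversed with at least 10 counts in every library, a filter that drops the most strongly lowered members. That filter gave medians of osteoblast factors −0.20, bone matrix 0.98, collagen −1.04, Erk feedback 1.14, ligands 0.35, Wnt −0.59, actin −0.55, glycolysis 0.30 and interferon 0.0781 and calls of bone matrix 5 lower, ribosome biogenesis 1 lower and interferon 6 higher. Upper-quartile factors gave medians of Yap/Taz targets 0.0552, glycolysis 0.31 and lysosome −0.47 and ribosome biogenesis 1 lower in calls, only the 6 libraries ligands 0.45, all 18 libraries osteoblast factors −0.27, Yap/Taz targets 0.10 and lysosome −0.42, and unstranded counts bone matrix −0.17, Erk feedback 1.28, Yap/Taz targets 0.17, actin −0.60 and lysosome −0.50. DESeq2 called interferon 2 lower and the threshold of 0.01 oxidative phosphorylation 6 lower. Demanding 2-fold left, in genes higher and lower where both moved, all genes 936 and 1144, osteoblast factors 1 and 6, collagen 23 lower, replication 29 higher, G1 7 and 1, Erk feedback 3 lower, ligands 11 and 3, Yap/Taz targets 1 and 3, Wnt 1 higher, Bmp and Tgfb 0 and 8, Igf 4 lower, NC and stemness 3 and 4, actin 0 and 9, ribosome biogenesis 9 higher, sterol 0 and 2, glycolysis 3 and 0, oxidative phosphorylation 0 and 0, interferon 4 and 0 and lysosome 0 and 2. Leaving out 1 library moved medians over these ranges: osteoblast factors −0.38 to −0.27, bone matrix −0.26 to 0.0438, collagen −1.22 to −1.13, G1 0.38 to 0.51, Erk feedback 1.22 to 1.26, ligands 0.45 to 0.62, Yap/Taz targets 0.0548 to 0.11, Wnt −0.67 to −0.61, Bmp and Tgfb −0.53 to −0.43, Igf −0.23 to −0.15, NC and stemness −0.22 to −0.11, actin −0.70 to −0.62, glycolysis 0.32 to 0.37, interferon 0.22 to 0.40 and lysosome −0.46 to −0.41. It moved the calls of ribosome biogenesis 0 to 1 lower, oxidative phosphorylation 5 to 10 lower and lysosome 2 to 4 higher. The bone matrix median was 0.0438 without replicate 1 and −0.26 without replicate 2 of Ctrl+vehicle, the oxidative phosphorylation calls fell to 5 without replicate 1 and the lysosome calls to 2 without replicate 3 of Y/T dKD+FGF2, and ribosome biogenesis gained 1 call lower without replicate 3 of Ctrl+vehicle. The causes were not tested. Depth limits genes under a few counts per library, where ratios carry wide counting intervals.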

Other observations

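Genes of glucose use were mostly higher with the knockdown under FGF2 than in the vehicle. Of 22 glycolysis genes tested, 16 were called higher and 6 lower (median log2 fold change 0.33), where 34.1% and 35.7% of all genes were. The transporters rose most. Slc2a3, a glucose transporter, was at 1.55, 1.94 and 0.663 CPM in Ctrl+vehicle and 3.83, 7.36 and 5.77 CPM with the knockdown (log2 fold change 1.99, standard error 0.25, adjusted p = 2.4e-08). Slc16a1, a lactate transporter, was at 129, 129.7 and 130.0 CPM in Ctrl+vehicle, 314, 326 and 319 CPM in Ctrl+FGF2 and 412, 392 and 410.0 CPM with the knockdown (log2 fold change 1.64, standard error 0.03, adjusted p = 3.8e-27). Hk2, the first enzyme of the pathway, was at 31.6, 31.5 and 32.1 CPM in Ctrl+vehicle and 64.3, 64.2 and 63.8 CPM with the knockdown (log2 fold change 1.01, standard error 0.06, adjusted p = 1.5e-16). The knockdown libraries were above every vehicle library for all 3, a condition of the choice of Slc2a3. Against Ctrl+FGF2, 15 of the 22 genes were lower and 1 higher (median −0.22), where 24.5% of all genes were called. The median of Ctrl+FGF2 against the vehicle was 0.59. Pfkfb3, which makes the activator of phosphofructokinase, was the most lowered of the list (log2 fold change −0.54, standard error 0.16, adjusted p = 0.00274). The genes of oxidative phosphorylation moved little, with 20 of 42 called higher and 10 lower, none by 2-fold (median 0.09). In total 71.4% were called, near the 69.8% of all genes. Of the 42, 5 were called lower without replicate 1 of Y/T dKD+FGF2 and 6 at adjusted p under 0.01. Their extremes were Cox5a (0.38) and Cox6a1 (−0.43), both subunits of cytochrome c oxidase, and Cox6c of the same complex was not called (−0.02, 95% interval −0.11 to 0.06).

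Lysosome and autophagy genes were mostly lower. Of 38 tested, 29 were called lower and 4 higher (median −0.44, beside −0.38 for Ctrl+FGF2 against the vehicle). Among all genes 35.7% were called lower. Wipi1, an early autophagosome protein, was at 182, 186 and 181 CPM in Ctrl+vehicle and 66.6, 63.4 and 63.1 CPM with the knockdown (log2 fold change −1.51, standard error 0.04, adjusted p = 1.9e-24). Ctsd, the protease cathepsin D, was at 176, 180.3 and 176 CPM in Ctrl+vehicle and 102, 104 and 101 CPM with the knockdown (log2 fold change −0.79, standard error 0.04, adjusted p = 6.9e-18). The protease Ctsl rose slightly (0.28, adjusted p = 4.3e-10), and the regulators Tfeb (−0.09, adjusted p = 0.531) and Tfe3 (0.05, 95% interval −0.05 to 0.14) were not called. Genes induced by interferon divided, with 11 of 24 called higher and 4 lower (median 0.29, and −0.08 for Ctrl+FGF2 against the vehicle). In total 62.5% were called, below the 69.8% of all genes, so against the vehicle the list does not stand apart by its count. Over genes with at least 10 counts in every library 6 were called higher and the median was 0.0781, and DESeq2 called 2 lower. Ifi44, an interferon-induced protein of the cytoplasm, was at 1.11, 0.625 and 1.08 CPM in Ctrl+vehicle, 1.50, 2.95 and 1.63 CPM in Ctrl+FGF2 and 4.96, 4.38 and 4.60 CPM with the knockdown (log2 fold change 2.31, standard error 0.26, adjusted p = 2.2e-09). Cxcl10, a chemokine, was at 0.665, 1.39 and 1.08 CPM in Ctrl+vehicle, 2.78, 3.80 and 3.33 CPM in Ctrl+FGF2 and 4.26, 4.72 and 5.69 CPM with the knockdown (log2 fold change 2.21, standard error 0.24, adjusted p = 1.0e-09). Bst2, or tetherin, was at 7.61, 6.04 and 8.45 CPM in Ctrl+vehicle, 15.8, 15.04 and 15.9 CPM in Ctrl+FGF2 and 13.2, 17.8 and 14.7 CPM with the knockdown (log2 fold change 1.06, standard error 0.12, adjusted p = 4.4e-09). Oas2, a sensor of double-stranded RNA, had 2 counts over the vehicle libraries and 40 over the knockdown libraries. Of the interferon signal carriers, Stat2 was lower (log2 fold change −0.65, standard error 0.06, adjusted p = 5.9e-12) and Irf9 was not called (−0.01, 95% interval −0.20 to 0.17).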
